A study of Mus musculus with 4 samples.

Results

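The genes described here are 6 killer lectin-like receptors of the natural killer (NK) type, namely KLRD1, KLRC1, KLRC2, KLRC3, KLRK1 and KLRF1. They were taken by gene symbol, each symbol matched exactly 1 entry of the count files, and all 6 passed the filter on low counts among 59488 genes kept. The samples were CD8+ T cells with high CD11a that were isolated by flow sorting from patients' peripheral blood in a study of antibody blockade of PD-1, an inhibitory receptor of T cells. Each of the 4 groups held 1 RNA-seq library, namely responder and non-responder before PD-1 blockade, and the same 2 response classes after it. Both pre-therapy sample names include a mark for PD-1 positivity, and no label states whether those cells were also gated on PD-1 or whether a library pools patients. The series text speaks of 2 cohorts. Per the labels, all patients were to receive the antibody at intervals of 3 weeks, with 4 doses making up a cycle. No label states whether the libraries from the 2 times share patients, so patient and time cannot be told apart, and with 1 library per group neither can patient and response.

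KLRD1 encodes CD94, which pairs with an NKG2 chain to form a receptor for HLA-E, a class I molecule that presents leader peptides of other class I molecules. KLRC1 encodes the inhibitory chain NKG2A, which carries tyrosine motifs that recruit phosphatases, whereas KLRC2 encodes the activating chain NKG2C, which signals through the adaptor DAP12 (TYROBP), and KLRC3 encodes NKG2E, a close relative of NKG2C. KLRK1 encodes NKG2D, a homodimer that signals in human cells through DAP10 (HCST) and recognises the stress-induced ligands MICA, MICB and the ULBP proteins. KLRF1 encodes NKp80, an activating receptor for the lectin AICL (CLEC2B). Many NK cells carry these receptors, and human CD8+ T cells carry NKG2D from early on and gain CD94, NKG2 chains and NKp80 as they differentiate into effector cells. NKG2A is itself a target of antibody blockade in oncology.

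The 4 libraries held between 65500644 and 129773591 counts. Levels are given as CPM, counts divided by library size, with TMM factors, which correct library sizes for differences in composition, and a level per kilobase divides the CPM by the coding length in the files. The sort markers were abundant, with CD8A between 865 and 1561 CPM and ITGAL, the CD11a gene, between 516 and 765 CPM. The T cell gene CD3E lay between 556 and 751 CPM. The defining NK marker NCAM1 (CD56) lay between 4.26 and 10.1 CPM and NCR1 (NKp46) between 4.91 and 16.3 CPM. The summed level of 12 monocyte and neutrophil markers, responder first, was 124 and 193 CPM before therapy and 1931 and 9355 CPM after it. Both libraries after therapy thus stood above both before it, the non-responder the most. All 12 markers were at least 2-fold higher after therapy in each response class. The part of such RNA in the time ratios was not tested. CD4 was at 94.7 CPM in the non-responder after therapy against 4.48 to 11.5 CPM in the other libraries. In bulk RNA, fewer cells of a type and less RNA per cell cannot be told apart.

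All 6 genes lie on chromosome 12 of hg38, in the order KLRF1, KLRD1, KLRK1, KLRC3, KLRC2, KLRC1. KLRF1 (ENSG00000150045) spans positions 9827481 to 9845007 and KLRD1 (ENSG00000134539) 10226058 to 10329600. KLRK1 (ENSG00000213809) spans 10372353 to 10391874, KLRC3 (ENSG00000205810) 10412312 to 10420595, KLRC2 (ENSG00000205809) 10426854 to 10442300 and KLRC1 (ENSG00000134545) 10442264 to 10454685. Several entries overlap. The read-through entry KLRC4-KLRK1 covers KLRK1 and KLRC4, and its count was 96.4% to 97.4% of the sum of the KLRK1 and KLRC4 counts in the 4 libraries, so most reads of KLRK1 also stand in that entry. An entry named NKG2-E starts where KLRC3 starts, runs into KLRC2, and held 104.5% to 117.8% of the KLRC3 count. RP11-277P12.20 overlaps KLRK1, and the strand setting of the counting is not given, so reads of the 2 cannot be told apart. KLRC1, KLRC2 and KLRC3 are closely similar in sequence, and how the counting divided reads among them is uncertain. The files give KLRD1 a coding length of 17404 bases, against 1193 to 3030 bases for the other members, which lowers its level per kilobase.

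KLRK1 was the most abundant of the 6 per kilobase in every library and KLRF1 the second. In CPM per kilobase, responder first, KLRK1 was at 366 and 206 before therapy and at 377 and 215 after it. Among all genes ranked by level per kilobase, this placed KLRK1 at rank 93 and 208 before therapy and at rank 92 and 171 after therapy. KLRF1 stood at 76.0 and 67.6 CPM per kilobase before therapy and at 164 and 81.2 after it. The 3 KLRC genes lay between 3.55 and 36.7 CPM per kilobase, with KLRC1 the lowest of the 3 in each library except that of the non-responder after therapy, where KLRC1 stood at 4.97 and KLRC2 at 4.80. The spread across libraries was smallest for KLRD1, with a 1.78-fold range of CPM, and KLRK1, with a 1.83-fold range, and largest for KLRC2, with a 5.61-fold range.

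**Figure D1:**
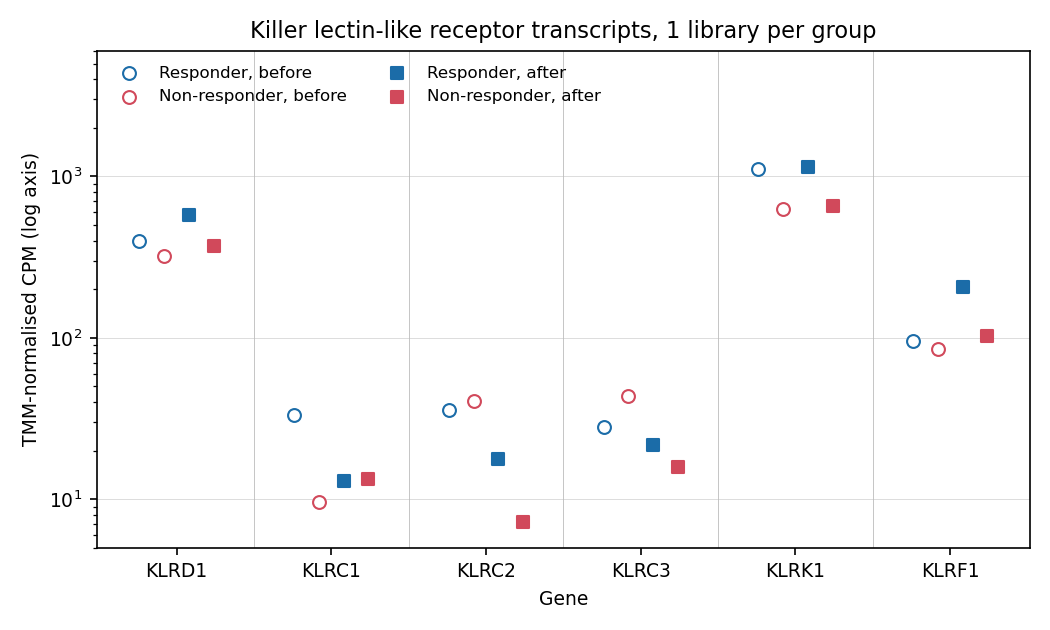
TMM-normalised CPM of the 6 receptor genes (horizontal axis) on a log vertical axis, 1 point per library, with circles for libraries before and squares for libraries after therapy, blue for responders and red for non-responders. KLRK1 forms responder and non-responder levels near 1109 to 1143 and 624 to 652 CPM, while KLRC2 and KLRC3 lie lower in both libraries after therapy than in both before it.

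With TMM factors, KLRK1, the NKG2D gene, separated responder from non-responder libraries by almost the same amount at both times. Before therapy the responder library held 1109 CPM and the non-responder library 624 CPM, and after therapy the 2 held 1143 and 652 CPM. Both responder libraries lay above both non-responder libraries. The log2 ratio was 0.83 before therapy (95% interval for counting error alone 0.81 to 0.85) and 0.81 after therapy (0.80 to 0.82), which is 1.78-fold and 1.75-fold. The 2 ratios differed by 0.02 on the log2 scale. They were 0.51 before and 0.39 after therapy when scaled to the CD3 chains, and 0.47 and 0.09 when scaled to CD8A. Between times, KLRK1 was 1.03-fold higher after therapy in the responder and 1.04-fold higher in the non-responder, and the sign of the first of these turned with library size alone (log2 ratio -0.06) and of both when scaled to CD8A (-0.45 and -0.07). The adaptor gene of NKG2D, HCST, did not share this profile, with 424 and 390 CPM before therapy and 308 and 240 CPM after it. There were 2.62 KLRK1 counts per HCST count in the responder and 1.60 in the non-responder before therapy, and 3.72 and 2.72 after therapy.

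KLRD1, the CD94 gene, was also higher in both responder libraries than in both non-responder libraries. Its level before therapy was 396 CPM (responder) and 323 CPM (non-responder), and after therapy 574 and 369 CPM in the same order. The log2 ratio was 0.29 (0.27 to 0.32) before and 0.64 (0.62 to 0.66) after therapy. The library of the responder after therapy was the highest, 1.45-fold above the responder before therapy, while the non-responder libraries were 1.14-fold apart. The direction of the response ratio depended on the scaling, since with counts scaled to the CD3 chains it was -0.03 before and 0.22 after therapy, and scaled to CD8A it was -0.07 and -0.08.

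KLRF1, the NKp80 gene, was set apart by 1 library. Responder and non-responder libraries from before therapy were close, at 95.7 and 85.2 CPM, and those from after therapy held 207 and 102 CPM. The responder after therapy was 2.02-fold above the non-responder after therapy (log2 ratio 1.02, 0.99 to 1.05) and 2.16-fold above the responder before therapy (1.11, 1.08 to 1.15). Before therapy the response ratio was only 0.17 (0.12 to 0.22), and it was -0.15 when scaled to the CD3 chains and -0.19 when scaled to CD8A. CLEC2B, which encodes the NKp80 ligand and lies next to KLRF1, was lowest in the responder before therapy, at 128 CPM against 258 CPM in the non-responder, and stood at 253 and 241 CPM after therapy.

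KLRC1, the gene of the inhibitory chain NKG2A, was highest in the responder before therapy. Its level there was 33.4 CPM, against 9.58 CPM for the non-responder of the same time. After therapy, responder and non-responder held 13.0 and 13.4 CPM. The responder library before therapy was 3.48-fold above its non-responder counterpart (log2 ratio 1.8, 1.67 to 1.93) and 2.57-fold above the responder library after therapy. After therapy the counting interval of the response ratio spanned 0 (log2 ratio -0.05, -0.15 to 0.06). The non-responder libraries differed the other way, with a level 1.40-fold higher after than before therapy.

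KLRC2 and KLRC3, the genes of the activating chain NKG2C and of its relative NKG2E, were both lower in the 2 libraries after therapy than in the 2 before it. Before therapy KLRC2 was at 35.7 CPM (responder) and 40.4 CPM (non-responder), and after therapy at 17.8 and 7.20 CPM. It was 2.00-fold lower after than before therapy in the responder (log2 ratio -1.0, -1.08 to -0.92) and 5.60-fold lower in the non-responder (-2.49, -2.60 to -2.37). KLRC3 stood at 28.2 and 43.7 CPM before therapy and at 21.8 and 15.8 CPM after it, which is 1.29-fold lower in the responder and 2.76-fold lower in the non-responder. For both genes the non-responder library was the highest of the 4 before therapy and the lowest after it. The response ratio therefore pointed in opposite directions at the 2 times, at -0.18 before and 1.31 after therapy for KLRC2, and at -0.63 and 0.46 for KLRC3, where the last value was -0.26 when scaled to CD8A.

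The balance of the 3 NKG2 chains differed between libraries. Of the summed KLRC1, KLRC2 and KLRC3 counts, KLRC1 made up 34.3% in the responder before therapy (Clopper-Pearson 95% interval 33.3% to 35.4%, of 8094 counts) and 10.2% in the non-responder before therapy (9.48% to 11%, of 6110 counts). After therapy its share was 24.7% in the responder (23.7% to 25.7%, of 6708 counts) and 36.8% in the non-responder (35.3% to 38.3%, of 4078 counts). KLRC2 took 36.7% and 43.1% before therapy and 33.8% and 19.8% after it. There were 0.936 and 0.237 KLRC1 counts per KLRC2 count before therapy and 0.730 and 1.86 after therapy, so KLRC1 exceeded KLRC2 in counts only in the non-responder library after therapy, among the 4 libraries, and the ratio spanned 7.84-fold. Shares per coding length moved in the same order for KLRC1, at 20.7%, 5.29%, 13.8% and 21.6%. The intervals cover counting error only.

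**Figure D2:**
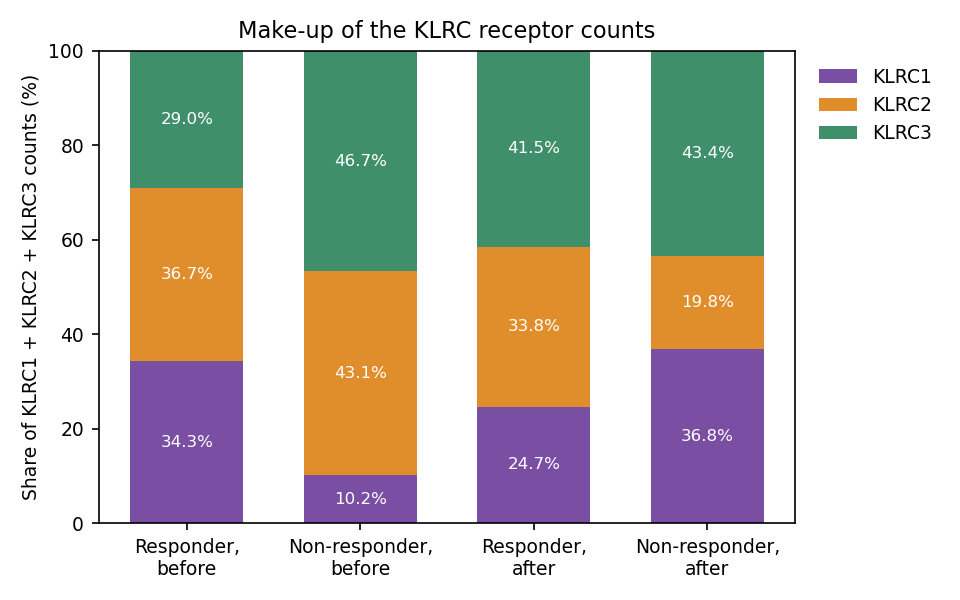
Stacked bars of the share of KLRC1 (purple), KLRC2 (orange) and KLRC3 (green) in the summed counts of the 3 genes, in percent from 0 to 100, with 1 bar per library. The KLRC1 share is smallest, at 10.2%, in the non-responder before therapy and largest, at 36.8%, in the non-responder after therapy.

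Differences between single libraries were counted at 2-fold or more among genes that reached 5 CPM in 1 of the 2, with no test since each side is 1 library. Before therapy, 1 of the 6 members, KLRC1, passed 2-fold toward the responder and 0 toward the non-responder, against 11.5% and 8.93% of 12359 genes. After therapy, 2 members, KLRC2 and KLRF1, passed 2-fold toward the responder and 0 toward the non-responder, against 5.79% and 8.86% of 12432 genes. In responders, 1 member, KLRF1, was at least 2-fold higher after therapy than before it, and KLRC1 and KLRC2 were at least 2-fold lower, against 8.49% and 4.69% of 12263 genes. KLRC2 lay at the 2-fold limit there, and it was no longer 2-fold lower with DESeq2 size factors (log2 ratio -0.98), a prior count of 5 or scaling to the CD3 chains (-0.75), while KLRF1 was no longer 2-fold higher with scaling to CD8A (0.62). In non-responders 0 members were at least 2-fold higher after therapy, and KLRC2 and KLRC3 were at least 2-fold lower, against 15.6% and 8.25% of 12639 genes. The members had a median log2 ratio of 0.23 for response before therapy, 0.73 for response after therapy, -0.16 for time in responders and 0.13 for time in non-responders, beside 0.06 to 0.07 over all genes in each of these comparisons. The 4 comparisons share libraries, so their values are not independent.

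**Figure D3:**
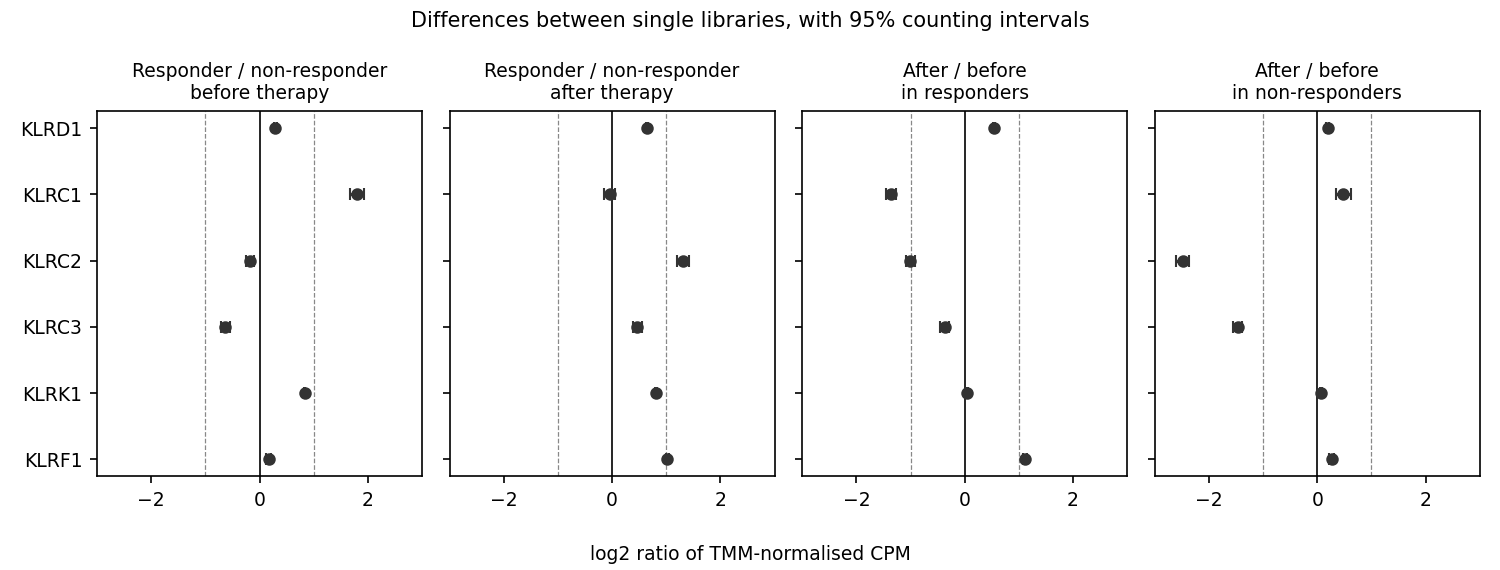
Log2 ratio of TMM-normalised CPM between 2 single libraries for the 6 receptor genes, with bars for the 95% counting interval and dashed lines at 2-fold, 1 panel per comparison. KLRK1 has nearly the same response ratio in both left panels, 0.83 and 0.81, whereas KLRC1, KLRC2 and KLRC3 change place between them.

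By non-overlap of the libraries, 2 of the 6 members, KLRD1 and KLRK1, had both responder libraries above both non-responder libraries, a pattern that 22.2% of 13231 genes with at least 5 CPM in a library showed. In 3 members, KLRD1, KLRK1 and KLRF1, the responder was above the non-responder at both times, as in 36.9% of the genes. KLRF1 had both libraries after therapy above both before it, as in 26.1% of the genes, and KLRC2 and KLRC3 had both below, as in 20.3%.

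The main test was a joint fit of response and time without interaction, which leaves 1 residual degree of freedom. Fits of response alone or time alone were an alternative. edgeR's quasi-likelihood test called 0% of 24111 genes, and so 0 of the 6 members, for response at an adjusted p under 0.05, and 0% and 0 of the 6 for time. With no adjustment, 2119 genes had p under 0.05 for response and 2731 for time, and among the members KLRK1 for response and KLRC2 for time. DESeq2 called 896 genes for response and 1517 for time, and limma-voom 0 and 2. The fitted log2 ratio of responder to non-responder was 0.82 ± 0.167 (SE) for KLRK1 (edgeR adjusted p = 0.558), 0.47 ± 0.190 for KLRD1 (0.577) and 0.59 ± 0.281 for KLRF1 (0.605). It was 0.88 ± 0.577 for KLRC1 (edgeR adjusted p = 0.690), 0.56 ± 0.470 for KLRC2 (0.753) and -0.08 ± 0.380 for KLRC3 (0.972). For time, KLRC2 was at -1.74 ± 0.479 (edgeR adjusted p = 0.412), KLRC3 at -0.92 ± 0.382 (0.480) and KLRF1 at 0.69 ± 0.282 (0.475). DESeq2 gave KLRK1 an adjusted p of 0.0175 for response and KLRC2 an adjusted p of 0.00656 for time, and called no other member. Over all alternative fits these adjusted p ranged from 0.0175 to 0.872 for KLRK1 and from 0.00656 to 0.518 for KLRC2, and the upper values came from edgeR fits of response alone and time alone. Leaving out either library from after therapy took the fitted response value to 1.8 for KLRC1, -0.18 for KLRC2, -0.63 for KLRC3 and 0.17 for KLRF1, and leaving out either from before therapy took it to -0.05, 1.31, 0.46 and 1.02, with no residual degree of freedom and so no test. For KLRK1 the values were 0.83 and 0.81. A fit without 1 library is exact, so such response and time values repeat the log2 ratios between single libraries. They are no separate check. The fitted time values became -2.49 for KLRC2, -1.47 for KLRC3, 0.26 for KLRF1 and 0.48 for KLRC1 without either responder library, and -1.0, -0.37, 1.11 and -1.36 without either non-responder library. With KLRC1 to KLRC4 summed, the time value was -0.41 (edgeR adjusted p = 0.497). KLRC4, which is no member, had a time value of 0.09 and makes up much of that sum. Before therapy it held 9280 (responder) and 4920 (non-responder) counts, against 8094 and 6110 for KLRC1 to KLRC3 together. After therapy it held 15029 and 9034 counts, against 6708 and 4078.

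Set against CD8A in the same library, KLRD1 was nearly constant. There were 0.357 KLRD1 counts per CD8A count in the responder and 0.374 in the non-responder before therapy, and 0.368 and 0.390 after therapy, a range of 1.09-fold where the CPM spanned 1.78-fold. Of 13029 genes with at least 5 CPM in a library and a count in each, 16, or 0.123%, were as even relative to CD8A, a comparison chosen after the values were seen. KLRK1 spanned 1.45-fold per CD8A count, and 8.43% of the genes were as even, and KLRF1 spanned 1.54-fold, with 12.4% as even. KLRK1 was highest in the responder before therapy, at 1.000 KLRK1 counts per CD8A count against 0.689 to 0.732 in the other libraries. KLRC1, KLRC3 and KLRC2 spanned 3.61-fold, 3.62-fold and 6.14-fold, and 78%, 78% and 90.3% of the genes were as even or more. CD8A itself was higher in the responder libraries, at 1110 CPM beside 865 CPM before therapy and at 1561 CPM beside 946 CPM after it. Scaling to CD8A moved the median response ratio of all genes to -0.30 before and -0.65 after therapy, and scaling to the CD3 chains moved it to -0.26 and -0.35. The KLRK1 ratio was then 0.47 and 0.09 with CD8A and 0.51 and 0.39 with the CD3 chains. A scaling moves every gene by the same amount, so the distance from that median is unchanged for every gene, KLRD1 and KLRF1 included.

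**Figure D4:**
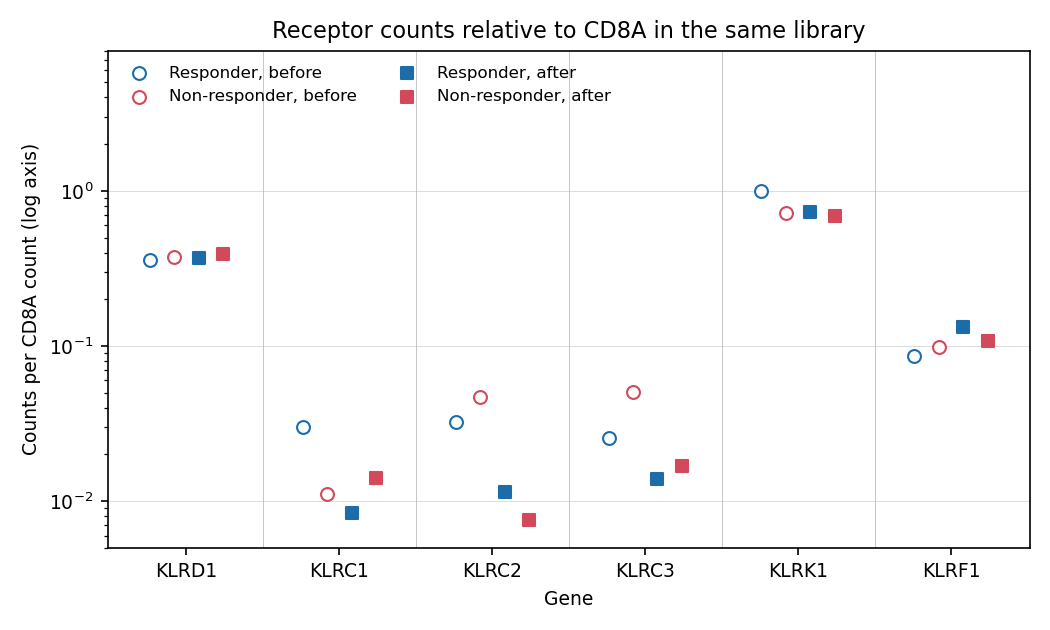
Counts of each receptor gene per CD8A count in the same library on a log vertical axis, with symbols as for the CPM levels. The 4 KLRD1 points lie between 0.357 and 0.390, while KLRC2 runs from 0.00761 to 0.0467.

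The listed adaptor genes, which include those of DAP10 and DAP12, were all expressed. Before therapy TYROBP, the DAP12 gene, was at 74.9 CPM (responder) and 56.3 CPM (non-responder), and after therapy at 61.1 and 273 CPM. FCER1G, a related adaptor gene of NK and myeloid cells, stood at 40.8 and 35.8 CPM before and at 51.0 and 276 CPM after therapy. After therapy the non-responder exceeded the responder 4.47-fold for TYROBP and 5.41-fold for FCER1G. All 12 monocyte and neutrophil markers were detected in each library, and their summed level was 9355 CPM in that non-responder, 1931 CPM in that responder, and 124 and 193 CPM before therapy. The part of monocyte or neutrophil RNA in the adaptor values was not tested. CD247, the zeta chain of the T cell receptor complex, lay between 168 and 362 CPM.

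The ligand genes showed no common direction. HLA-E, the ligand of CD94 with NKG2A or NKG2C, lay between 3611 and 4419 CPM, and the response ratio was 0.07 before and 0.22 after therapy. MICB, an NKG2D ligand, was at 16.9 CPM (responder) and 11.3 CPM (non-responder) before therapy, and at 19.4 and 8.89 CPM after it. For MICA the values were 8.79 and 5.21 CPM before therapy and 4.69 and 8.21 CPM after it. Before therapy the non-responder held 7.25 CPM of ULBP2, which lay between 0.925 and 1.14 CPM in the other libraries, and ULBP1, ULBP3, RAET1E, RAET1G and RAET1L were under 1 CPM in all 4 libraries. Of the 10 ligand genes, 6 were tested in the additive model, and edgeR called 0 for response and 0 for time.

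Signalling genes were described with the same rule. Of 15 genes of the activating pathway, 3 were at least 2-fold higher and 1 lower in the responder before therapy, and 1 higher and 1 lower after it, where all genes gave 11.5% and 8.93% before and 5.79% and 8.86% after therapy. SH2D1A, the gene of the adaptor SAP, passed 2-fold at both times, with 119 and 53.4 CPM before therapy and 276 and 107 CPM after it in responder and non-responder. SH2D1B, the gene of the related NK adaptor EAT-2, was at 41.2 and 13.0 CPM before therapy and at 21.3 and 13.4 CPM after it. CRK, also 2-fold higher before therapy, had a log2 ratio of responder to non-responder of 1.72 before and 0.32 after therapy. PIK3R1, the lower gene before therapy, had a ratio of -1.70 before and -0.63 after therapy, so the responder was below the non-responder at both times. SYK, a kinase downstream of DAP12 that is also abundant in myeloid and B cells, stood at 104 CPM in the non-responder after therapy and at 6.27 to 19.8 CPM elsewhere. The median of the activating list was 0.52 before and 0.38 after therapy, beside 0.06 and 0.07 over all genes. The inhibitory phosphatase gene PTPN6, whose product SHP-1 binds NKG2A, stood at 403 and 261 CPM before and 275 and 347 CPM after therapy, and of 5 inhibitory signalling genes 0 before and 1 after therapy, CBL, was at least 2-fold apart between responder and non-responder. edgeR called 0 of these 20 genes for response and 0 for time.

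Of 19 cytokine receptor and transcription factor genes that govern NK-type receptors, 1 was at least 2-fold higher and 1 lower in the responder before therapy, and 3 higher and 1 lower after it, beside the same shares of all genes. IL2RB, the chain through which IL-15 acts on cytotoxic lymphocytes, was at 386 and 228 CPM before therapy and at 564 and 232 CPM after it, responder first. EOMES, a T-box factor of effector and NK cells, was at 208 and 95.2 CPM before therapy and at 356 and 220 CPM after it. NFIL3, the lower gene at both times, was at 29.9 and 103 CPM before therapy and at 79.8 and 186 CPM after it. IKZF2, the gene of Helios, stood at 23.8, 17.4 and 18.8 CPM in 3 libraries and at 4.2 CPM in the non-responder after therapy, the library in which KLRC2 was lowest. ZNF683, the gene of HOBIT, was lower after therapy in the responder, at 42.9 CPM from 226 CPM, and in the non-responder, at 59.4 CPM from 163 CPM. ID3, an inhibitor of E proteins, was at 5.12 and 8.36 CPM before therapy and at 0.620 and 1.49 CPM after it. edgeR called 0 of the 19 for response and 0 for time, with 4 higher and 1 lower at an unadjusted p under 0.05 for response and 4 higher and 2 lower for time. Over all 24111 genes these numbers were 1186 and 933 for response and 1662 and 1069 for time.

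Other genes of the killer lectin-like family and related lectins were examined as well, and of these KLRG2 lies on chromosome 7. KLRG1, an inhibitory receptor of late effector cells, was at 358 CPM (responder) and 215 CPM (non-responder) before therapy, and at 462 and 161 CPM after it. KLRB1, the CD161 gene, was higher in the responder before therapy, at 73.4 against 50.6 CPM, and lower after it, at 57.4 against 101 CPM. CLEC2D, which encodes the CD161 ligand, was at 451 and 326 CPM before therapy and at 527 and 332 CPM after it. KLRC4, whose reads mostly also stand in the read-through entry, was at 112 and 75.4 CPM before therapy and at 118 and 80.7 CPM after it, and KLRF2 and KLRG2 had no count in any library. From KLRB1 to the pseudogene KLRAP1 (positions 9594551 to 10599669), 26 entries reached 5 CPM in a library, of which 12 had the responder above the non-responder at both times and 4 below at both times. Among the 20 that are no members, these numbers were 9 and 4. Over all genes with at least 5 CPM in a library, 36.9% had the responder above at both times, and the share below was not counted. Several entries of the interval overlap, so they are not all separate genes. The 4 entries from RP11-277P12.20 to KLRC4, which overlap each other or the read-through entry, had response ratios between 0.55 and 0.83 at both times, and KLRC3, KLRC2 and KLRC1 beside them did not. The myeloid and platelet lectin genes CLEC12A and CLEC1B, named after their values were seen, had ratios of 1.39 and 4.11 before and -4.01 and -3.60 after therapy. An entry was kept if any library reached 5 CPM, so its ratio at the other time can rest on few counts. The levels of CLEC12A and CLEC1B are not given here.

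**Figure D5:**
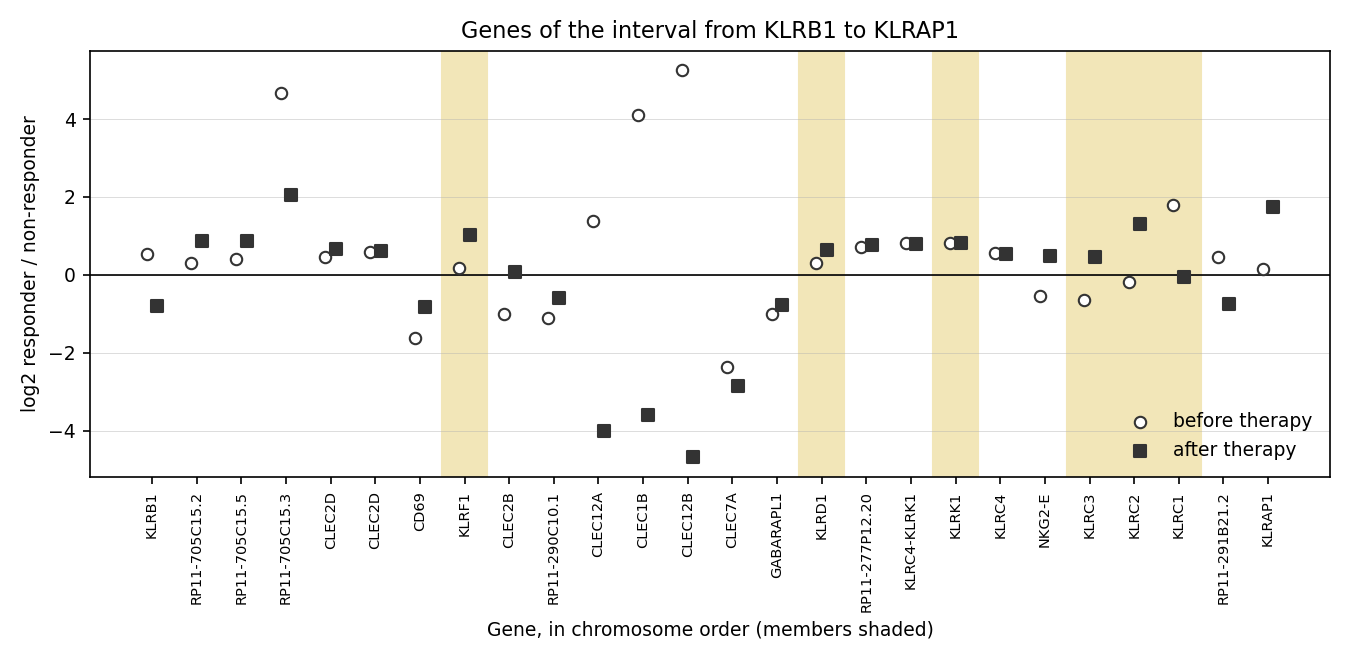
Log2 ratio of responder to non-responder for 26 entries from KLRB1 to KLRAP1 in chromosome order, with open circles before and filled squares after therapy, and the 6 receptor genes shaded. Circle and square nearly coincide from RP11-277P12.20 to KLRC4, at 0.55 to 0.83, and separate for KLRC3, KLRC2 and KLRC1.

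NK cell markers, many of which effector CD8+ T cells also express, were detected in every library. FCGR3A, the CD16 gene, was at 324 CPM (responder) and 200 CPM (non-responder) before therapy, and at 277 and 140 CPM after it. NCR3 stood at 92.4 and 71.1 CPM before and at 37.5 and 22.6 CPM after therapy, and NCR1 at 16.3 and 14.2 CPM and at 8.74 and 4.91 CPM, so both were lower in both libraries after therapy, as were KLRC2 and KLRC3. S1PR5, SPON2 and IL18RAP were lower in both as well. NCAM1, XCL1, XCL2 and FCER1G were instead higher in both libraries after therapy. NCAM1 was at 4.26 and 7.05 CPM before and 10.1 and 8.93 CPM after therapy. Of the 15 NK cell markers, 10 were lower and 5 higher after therapy in the responder, and 8 lower and 7 higher in the non-responder. Their median log2 ratios for time were -0.40 and -0.31, beside 0.07 over all genes. Among all genes with at least 5 CPM in a library, 20.3% were lower in both libraries after therapy. MYOM2, a muscle gene also expressed by NK and effector T cells, was at 94.3 CPM in the responder before therapy, 5.01 CPM in its non-responder counterpart, and 9.82 and 2.94 CPM after therapy. Over the 15 NK cell markers the median log2 ratio was 0.68 for response before and 0.73 after therapy, beside 0.06 and 0.07 over all genes, and the summed level was 1602 and 1133 CPM before and 1215 and 1169 CPM after therapy, with 0 of 15 at zero in any library. The 11 T cell markers also had medians above those of all genes, at 0.36 before and 0.52 after therapy, and their summed level, responder first, was 7018 and 5449 CPM before and 6842 and 4691 CPM after therapy. TRDC, the delta chain constant gene of gamma-delta T cells, stood at 60.6, 83.2, 93.9 and 25.0 CPM in the responder and non-responder before and the responder and non-responder after therapy. The part of NK or gamma-delta T cells in the receptor values was not tested. edgeR called 0 of the 15 NK markers for response and 0 for time.

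The profile of each member over the 4 libraries was compared with 13089 other genes by the root mean square difference of centred log2 CPM. KLRK1 was nearest to the overlapping read-through entry, at 0.01, and then to GSDMD, at 0.02, the gasdermin D gene, which stood at 71.0 and 38.8 CPM before and 70.6 and 40.3 CPM after therapy. KLRD1 was nearest to CCDC25, at 0.0043, KLRC1 to AC129492.1, at 0.10, KLRC2 to XXbac-B476C20.9, at 0.08, KLRC3 to CDK3, at 0.02, and KLRF1 to CDRT4, at 0.06. Among the members, KLRD1 and KLRF1 were closest to each other, at 0.22, followed by KLRD1 and KLRK1, at 0.25, and KLRC2 and KLRF1 were farthest apart, at 1.23. KLRD1 ranked 310 among the neighbours of KLRF1, KLRC3 ranked 254 among those of KLRC2, and KLRC1, whose product pairs with that of KLRD1, ranked 10178 among those of KLRD1. With 4 libraries many genes share any given profile, and these distances are a description.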

How the data were processed

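RNA of the 4 sorted samples was converted to cDNA from 1 ng with a SMARTer Ultra Low kit and sequenced as 101-base read pairs, as the labels' protocols state. bcl2fastq 1.8.4 made the base calls and TopHat2 aligned reads to hg38, per the submitters' processing notes. The authors deposited raw counts for 64253 Ensembl entries per library, per the file headers. The counting tool, its strand setting and the gene models were not given in the sources used here. The labels name mouse as organism, but the files hold human genes, and they were treated as human. A treatment label puts all samples after a cycle of therapy, and the group label, which separates before from after, was followed.

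Library totals include all counts, and 4146 entries on other contigs and 619 sex-informative entries were left out of the tables. edgeR 4.0.16 (R 4.3.3) was used with TMM, filterByExpr, an additive design and two-sided quasi-likelihood F tests, and p was adjusted over all genes by Benjamini-Hochberg. The SE is the fitted log2 ratio divided by the square root of F. No replicate exists within a group, so a p-value sets the effect of response or time against the departure of the 4 libraries from additivity. That departure is moderated over all genes, and it does not measure variation between patients. Single libraries were compared by log2 ratios (prior count 0.5) and by exact binomial intervals conditional on the summed count. DESeq2 1.42.0, limma-voom (limma 3.58.1), other scalings, filters, thresholds and summed entries were alternatives, and scaling to CD8A was added after seeing the data. The fit was also run on simulated data with changes larger than most ratios of the members. Its outcome is not given here and backs no result above. Members and gene lists were chosen with earlier results of these data known.

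The naming rule took all members, all adaptors, detected ligands and related receptors, up to 4 genes with the largest ratio from every other list plus its best-known markers, and the 3 genes nearest in profile to each member, of which mainly the first is printed. SH2D1B and EOMES after therapy, PTPN6, IL2RB before therapy, NCR3, CLEC12A, CLEC1B and KLRAP1 were added for their roles or position after their values were seen. No sequence is printed, since the reference tables used here are of mouse.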

Additional observations from a re-analysis of the deposited data

Results flagged for a closer look

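For 3 members the differences in 2 groups pointed in opposite directions beyond the counting intervals, with 1 library on each side, and the difference between the ratios was not tested. KLRC1 had a log2 ratio of after to before therapy of -1.36 in responders and 0.48 in non-responders. KLRC2 had a log2 ratio of responder to non-responder of -0.18 before and 1.31 after therapy. KLRC3 had a ratio of -0.63 before and 0.46 after therapy.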

How the results depend on the processing

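No paired analysis was possible because each group held 1 library and the labels do not tie libraries to patients. For response, DESeq2 called 896 genes where edgeR called 0, and for time DESeq2 called 1517, limma-voom 2, edgeR without the filter 2 and edgeR over genes with at least 10 CPM in a library 3, where the main edgeR fit called 0. The other settings called 0 genes. The setting with summed entries adds KLRC4, which is no member, and counts most KLRK1 reads in both KLRK1 entries. With KLRC1 to KLRC4 and both KLRK1 entries summed, which leaves 4 features, the members at least 2-fold apart were 0 for response before therapy, 1 after therapy, 1 for time in responders and 0 for time in non-responders. For time in responders they were 2 in place of 3 with DESeq2 size factors, a prior count of 5, scaling to the CD3 chains or scaling to CD8A. At a fold of 1.5 they were 3 for response before and 4 after therapy. The share of all genes at that fold was not counted. Scaled to the CD3 chains or to CD8A, 0 members were 2-fold apart for response after therapy. Without the summed setting, 18 of 24 ratios between single libraries kept their sign under every scaling and prior count, and DESeq2 size factors, library size alone or a prior count of 5 moved any of the 24 by at most 0.11 on the log2 scale. The cause of these changes was not tested.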
